A study of Mus musculus with 8 samples.

Results

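Interferon-stimulated genes are a set of antiviral genes that cells switch on when interferon binds its receptors. The 9 described here were chosen by name: Isg15, Usp18, Ifit1, Ifit3, Oasl2, Rsad2, Bst2, Ifi44 and Irf7. They are 9 of the 24151 genes, and 11 of the 32862 RefSeq transcripts, in the deposited tables. Of these, 8 symbols have a single transcript, and Irf7 has 3, whose values were summed. The samples were embryonic kidneys of ICR mice, an outbred stock, profiled by RNA sequencing as 8 libraries. In the CPF group, pregnant mice aged 8 weeks received chlorpyrifos, an organophosphate insecticide, under the skin at 5 mg/kg each day from gestation day 7.5 to 11.5. In the DMSO group, pregnant mice of the same stock and age received the solvent dimethyl sulfoxide alone, in the same volume on the same days. Kidneys were taken first at E12.5, then at E14.5, E16.5 and last at E18.5, with 1 CPF and 1 DMSO library at each stage. The number of embryos pooled into each library, and of their litters, is not stated in the sources used.

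Type I interferons bind a receptor made of Ifnar1 and Ifnar2, and the receptor-bound kinases Jak1 and Tyk2 then phosphorylate transcription factors, among them Stat2. These join Irf9 and bind the interferon-stimulated response element, or ISRE, in the promoters of interferon-stimulated genes. Interferon gamma acts through another element, the gamma-activated site. The products of the genes block viral entry, translation, replication and budding, and some of them turn the response down again.

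The promoters show what the members share in sequence, and the windows below are the stretches that hold the ISRE core. RefSeq promoters (GRCm38.p6, the assembly that mm10 names), which run from 250 bases before to 50 bases after the gene start, were found for 8 of the 9 genes. The ISRE core was searched as GAAA-NN-GAAA and the gamma-activated site as TTC-NNN-GAA, on both strands. The ISRE core was present in 5 of the 8 member promoters, against 3.44% of 32851 promoters, and the gamma-activated site in 1 of 8, against 8.30%. Each window is 80 bases long and written 5′ to 3′ on the strand of the gene, with the matches to the ISRE core in capitals.
Isg15, chr4:156200846-156200925, minus strand: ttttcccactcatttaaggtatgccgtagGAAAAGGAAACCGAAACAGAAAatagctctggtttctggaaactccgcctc
Bst2, chr8:71537555-71537634, minus strand: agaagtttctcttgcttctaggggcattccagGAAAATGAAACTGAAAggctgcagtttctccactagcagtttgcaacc
Rsad2, chr12:26456528-26456607, minus strand: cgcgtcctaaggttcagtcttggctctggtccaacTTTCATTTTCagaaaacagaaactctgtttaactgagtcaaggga
Ifit3, chr19:34583355-34583434, plus strand: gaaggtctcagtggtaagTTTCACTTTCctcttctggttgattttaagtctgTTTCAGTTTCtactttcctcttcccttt
Ifit1, chr19:34640759-34640838, plus strand: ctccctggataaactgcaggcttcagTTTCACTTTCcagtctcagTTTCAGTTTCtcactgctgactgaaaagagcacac
Isg15 held 3 matches that overlap one another and Bst2 held 2 that overlap, while Ifit3 and Ifit1 held 2 separate matches each and Rsad2 held 1. The first bases of the matches lay between 66 and 156 bases before the start that each promoter is drawn from. For Ifit3 that start lies inside the gene span given next, so its window does too. The 1 match to the gamma-activated site was in Bst2 and overlapped its ISRE match. No match to either motif was in the windows of Ifi44, Oasl2 and Irf7. A match describes these letters only.

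On GRCm38, Ifit3 and Ifit1 lie on chromosome 19 at 34583119 to 34588982 and 34640889 to 34650009, in a cluster that spans 99.5 kb from Ifit2 to Ifit1. Isg15 lies on chromosome 4 at 156199424 to 156200818, Bst2 on chromosome 8 at 71534255 to 71537472, and Rsad2 on chromosome 12 at 26442743 to 26456452. Ifi44 lies on chromosome 3 at 151730922 to 151749910, Oasl2 on chromosome 5 at 114896926 to 114912245, Usp18 on chromosome 6 at 121245906 to 121270917 and Irf7 on chromosome 7 at 141263183 to 141266499. The annotation of Ifit1 overlaps Ifit1bl1, that of Isg15 overlaps Gm46878 and that of Usp18 overlaps Gm44148. Ifit3 has a close copy, Ifit3b, in the same cluster. The sources used do not say how reads shared by such genes were assigned, so the values of these 4 members are uncertain to that extent.

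Levels are in TPM, the unit of the deposited tables, a share of all transcripts that corrects for their length and sums to the same total in each library. Steps in the low values gave the worth of 1 read, and from this each library held between about 19600000 and 27800000 reads on transcripts of known length. One read in a transcript of 1 kb was worth 0.0609 to 0.105 TPM. Rpph1 and Rmrp, the RNAs of the RNase P and MRP enzymes, took 21.3% of the TPM in the CPF E18.5 library and 41.8% in the DMSO E18.5 library, and between 19.3% and 31.0% in the other 6. TPM is a share of the whole, and the median CPF over DMSO ratio, over the tested genes above 0 in both libraries of a stage (13173 to 13388 of 13677), was 0.899, 1.02, 1.11 and 1.57 in stage order. Genes with several RefSeq transcripts were mostly near 0, and 22.7% of 4777 such genes averaged 1 TPM or more, against 60.8% of the 19374 with 1 transcript. The kidney list, whose defining genes include Wt1 at 69.9 TPM or more and Sall1 at 47.7 TPM or more in every library, was present throughout. Summed liver genes reached 217 to 6210 TPM in CPF libraries and 22.9 to 1024 TPM in DMSO libraries, with the highest 2 values in the E14.5 and E16.5 CPF libraries. Summed adrenal cortex genes were highest in the same CPF libraries (766 and 767 TPM, against 54.6 to 118 TPM in DMSO libraries). Results of fits across stages are therefore given with and without both of those stage pairs where this changes them. Liver genes also differed at the stages that remain. They summed to 217 TPM in the CPF and 22.9 TPM in the DMSO library of E12.5, and to 1135 and 45.7 TPM at E18.5. Leaving out both pairs thus does not remove the liver difference.

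The 8 measurable genes together summed to 15.1, 37.9, 51.6 and 133.2 TPM in CPF kidneys in stage order, from the youngest to the oldest, and to 16.1, 16.46, 35.7 and 42.4 TPM in DMSO kidneys. The sums were alike at E12.5 and furthest apart at E18.5. Rsad2 and Bst2 made up most of each sum.

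**Figure D1:**
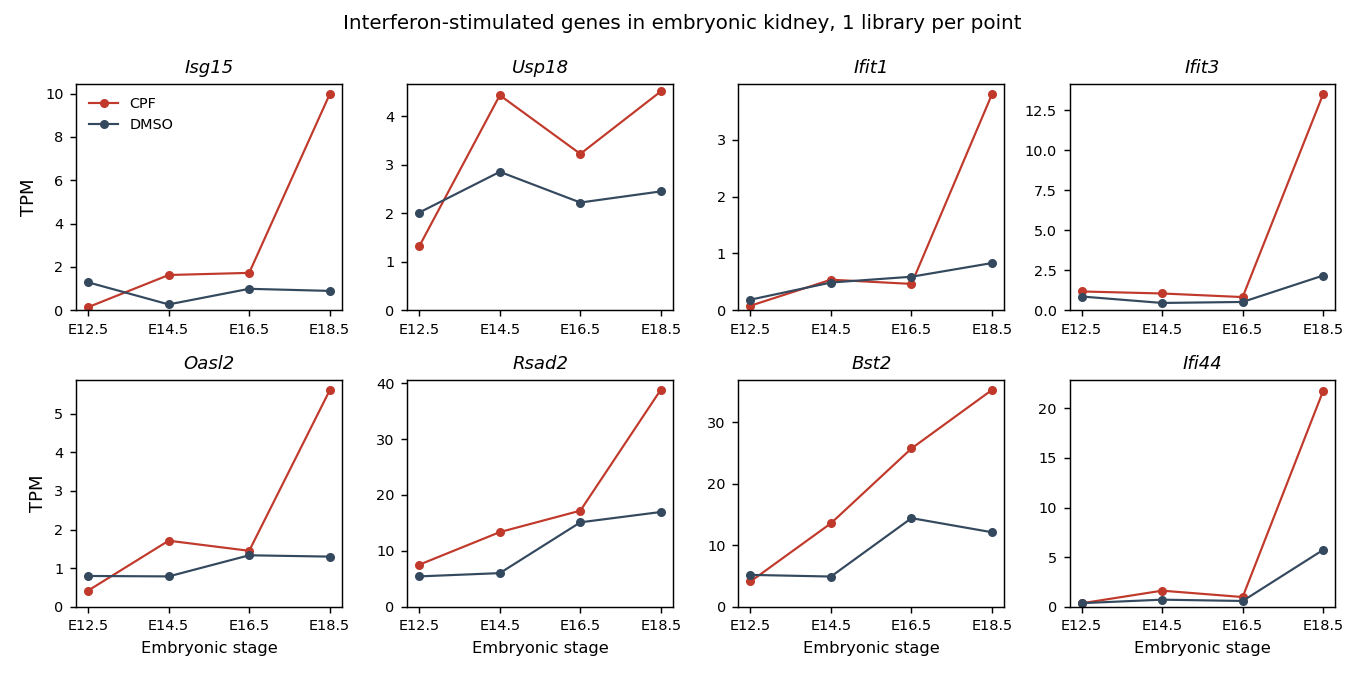
TPM (vertical axes, from 0, scaled to each gene) of 8 interferon-stimulated genes at 4 embryonic stages (horizontal axes) in CPF and DMSO kidneys; each point is 1 library and no error bar can be given. At E18.5 the CPF point lies above the DMSO point for all 8 genes, and at E12.5 for Ifit3 and Rsad2 alone.

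Isg15 encodes a small ubiquitin-like protein that is joined to other proteins. It read 0.134, 1.62, 1.72 and 9.97 TPM in CPF kidneys in stage order, and 1.28, 0.261, 0.982 and 0.885 TPM in DMSO kidneys. These values rest on 1, 13, 16 and 72 reads in CPF kidneys and on 12, 2, 11 and 11 reads in DMSO kidneys. The CPF E18.5 library stood above the other 7, whose highest value was 1.72 TPM. Usp18, the protease that removes Isg15 from its targets and also damps the type I receptor, read 1.32, 4.43, 3.22 and 4.51 TPM in CPF kidneys and 2.01, 2.85, 2.22 and 2.45 TPM in DMSO kidneys. Its values at E14.5 and E18.5 in CPF kidneys were nearly equal, unlike those of Isg15.

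Ifit1 and Ifit3 encode tetratricopeptide repeat proteins; Ifit1 binds foreign RNA by its cap. Ifit3 read 1.16, 1.04, 0.811 and 13.5 TPM in CPF kidneys and 0.846, 0.444, 0.506 and 2.16 TPM in DMSO kidneys. Ifit1 read 0.0765, 0.535, 0.461 and 3.80 TPM in CPF kidneys and 0.183, 0.485, 0.587 and 0.828 TPM in DMSO kidneys. Both were highest at E18.5 under each agent, and for both the step between E16.5 and E18.5 was larger in CPF kidneys. Ifit3 was 16.6 times as high at E18.5 as at E16.5 in CPF kidneys and 4.27 times as high in DMSO kidneys. For Ifit1 these ratios were 8.26 in CPF kidneys and 1.41 in DMSO kidneys. Ifit1 reached 1 TPM in only 1 library, the CPF library of E18.5, so it did not pass the filter for testing.

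Oasl2, a relative of the oligoadenylate synthetases that sense double-stranded RNA, read 0.419, 1.71, 1.45 and 5.61 TPM in CPF kidneys and 0.797, 0.786, 1.33 and 1.30 TPM in DMSO kidneys. Its DMSO values at E16.5 and E18.5 were nearly equal, while its CPF value at E18.5 was 3.87 times that at E16.5. Rsad2, or viperin, is an enzyme that makes a nucleotide which ends viral RNA chains. It was the most abundant member by mean TPM, at 7.52, 13.3, 17.2 and 38.8 TPM in CPF kidneys and 5.43, 6.01, 15.1 and 16.9 TPM in DMSO kidneys. It was higher in the CPF library at all 4 stages and its values rest on 230 to 1400 reads.

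Bst2, or tetherin, holds budding virus particles at the cell surface. It read 4.11, 13.6, 25.7 and 35.3 TPM in CPF kidneys and 5.18, 4.91, 14.4 and 12.1 TPM in DMSO kidneys. The CPF values went up at each stage, while the DMSO values were near 5 TPM at both early stages and above 12 TPM at both late ones. Ifi44, an interferon-induced gene of less settled function, read 0.348, 1.62, 0.977 and 21.8 TPM in CPF kidneys and 0.361, 0.712, 0.580 and 5.73 TPM in DMSO kidneys. It showed the largest ratio of E18.5 to E16.5 of the 8 genes under either agent, 22.3 in CPF kidneys and 9.88 in DMSO kidneys.

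Irf7, the transcription factor that amplifies the production of type I interferon, was listed at 0 in all 8 libraries. It has several transcripts, a class of gene that was mostly near 0 in these tables, so this is only a listed value.

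At each stage the design gives 1 CPF and 1 DMSO library, so the ratios have no replicate check and no test between the agents. A counting interval was placed on each ratio from the recovered reads (exact Clopper-Pearson, 95%). It covers counting error only, since the reads are not independent molecules and animals were not replicated.

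At E12.5, about a day after the last injection, the CPF library was higher for 2 of the 8 measurable genes, Rsad2 and Ifit3. The median CPF over DMSO ratio of the 8 genes was 0.724, against 0.899 for all genes. The interval was above 1 for Rsad2, at 1.39 (1.17 to 1.65), and below 1 for Isg15, at 0.104 (0.00244 to 0.705). The Isg15 ratio rests on 1 read in the CPF library and 12 in the DMSO library. At E14.5 the CPF library was higher for 8 of 8 genes, with a median ratio of 2.25, and the interval was above 1 for 6, all but Ifit1 and Ifit3. Bst2 had a ratio of 2.76 (1.93 to 4.13) and Rsad2 of 2.22 (1.90 to 2.61). At E16.5 it was higher for 7 of 8, with a median ratio of 1.53, and the interval was above 1 for 3, namely Bst2, Rsad2 and Usp18. Against the median of all genes at that stage, 1.11, the interval lay above it for 1 of the 8, Bst2, and held it for 7.

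At E18.5 the CPF library was higher for 8 of 8 genes and the interval was above 1 for all 8. The ratio was 11.3 (5.94 to 23.6) for Isg15, 6.26 (4.70 to 8.42) for Ifit3, 4.59 (3.10 to 6.94) for Ifit1 and 4.32 (3.22 to 5.79) for Oasl2. It was 3.80 (3.28 to 4.39) for Ifi44, 2.91 (2.37 to 3.55) for Bst2, 2.29 (2.11 to 2.49) for Rsad2 and 1.84 (1.32 to 2.58) for Usp18. The ratio of all genes was itself above 1 at this stage, with a median of 1.57. The interval lay above that median for 7 of the 8 genes and held it for Usp18. The 4 genes with the highest ratios had 0.828 to 2.16 TPM in the DMSO E18.5 library. Of the rest, Rsad2 and Bst2, the most abundant members, were among the 3 with the lowest ratios.

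**Figure D2:**
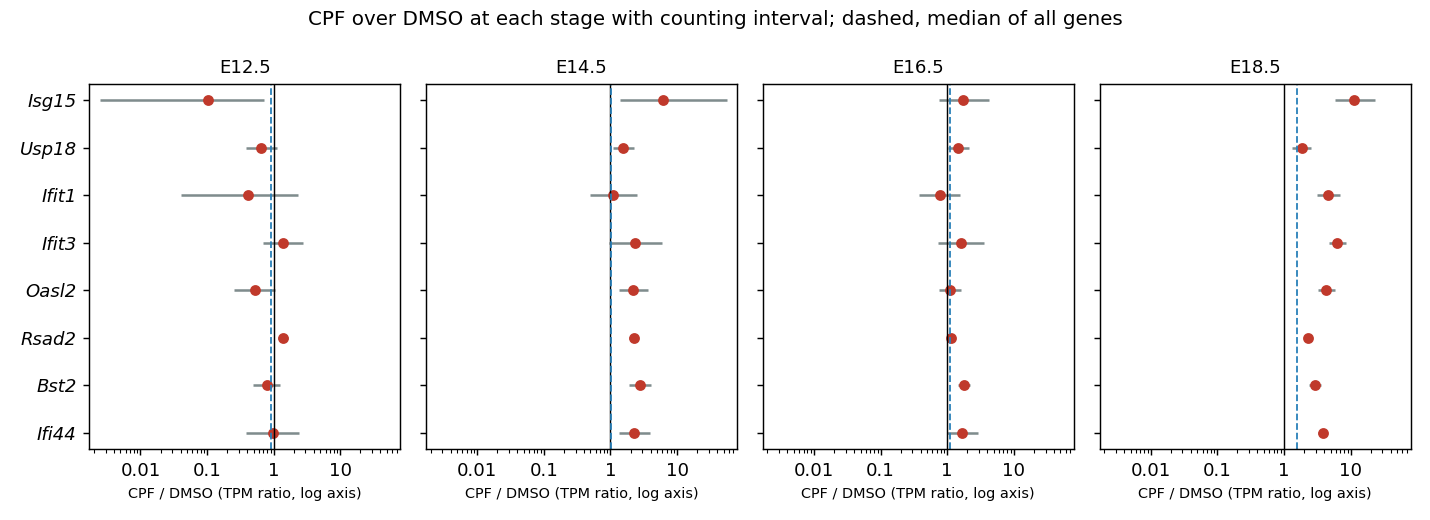
CPF over DMSO ratio of TPM (horizontal, log axes) for 8 genes at each stage, with bars for the 95% counting interval and a dashed line at the median of all genes. At E12.5 the bars of 6 genes cross 1; at E18.5 all 8 bars lie above 1 and 7 lie above the dashed line at 1.57.

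On the log2(TPM + 1) scale, a difference of at least 1 between CPF and DMSO at E18.5 was seen for 6 of the 7 tested genes, all but Usp18, and for Ifit1. Of all tested genes, 20.4% were that much higher in CPF at E18.5. At E14.5 it was seen for 3 of 7 (Isg15, Rsad2 and Bst2), beside 6.18% of all tested genes. At E12.5 it was seen for 0 of 7, beside 6.04%, and at E16.5 for 0 of 7, beside 7.44%. Isg15 was lower in CPF by at least 1 at E12.5, beside 2.5% of all genes, and no member was so at the other stages, beside 2.16%, 3.2% and 2.02%. The 7 tested genes reached 1 TPM in 3 (Ifi44) to 8 libraries, the CPF E18.5 library among them. Ifit1 reached it in the CPF E18.5 library alone, so it was bound to be higher there. These counts are a description. With the median of all genes (0.53 at E18.5) taken off, Isg15, Ifit3 and Ifi44 remained at least 1 higher, at 2.01, 1.67 and 1.22, and Oasl2 and Bst2 stood at 0.99 and 0.93. When the libraries were rescaled to coding transcripts alone, which removes Rpph1 and Rmrp, 6 of the 8 genes remained at least 1 higher. Among the 6 were Ifit1 at 1.27 and Bst2 at 1.04. The median of all genes was then 0.14, and the share of all genes at least 1 higher was not computed for that scaling. The sign of the E18.5 difference was positive for all 8 genes under each scaling tried, down to 0.097 for Usp18 with quantile normalization.

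Across the 4 stages, the fitted CPF minus DMSO difference was above 0 for all 7 tested genes and passed the test for none of them. The fit was limma's on log2(TPM + 1), with stage as a term, genes with 1 TPM or more in 2 or more libraries and Benjamini-Hochberg adjustment over 13677 genes. Of all genes, 0.154% were called higher and 0.00731% lower in CPF. Bst2 differed by 0.82 ± 0.32 (SE, n = 4 stage pairs, limma adjusted p = 0.414), Ifit3 by 0.80 ± 0.36 (0.509), Isg15 by 0.76 ± 0.50 (0.731) and Rsad2 by 0.69 ± 0.28 (0.440). Ifi44 differed by 0.67 ± 0.33 (limma adjusted p = 0.569), Oasl2 by 0.46 ± 0.34 (0.759) and Usp18 by 0.30 ± 0.30 (0.843). At an unadjusted p under 0.05 there were 3 of the 7, Bst2, Rsad2 and Ifit3, beside 1306 of the 13677 genes. The median of all genes was 0.15. The spread behind these errors is how the difference varied between stages, which for Isg15 ran between -1.01 at E12.5 and 2.54 at E18.5. No member was called under any of the 15 alternatives, which include leaving out both the E14.5 and the E16.5 pair.

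At E18.5 against E12.5, 3 of the 7 tested genes rose, beside 4.67% of all genes called higher and 3.73% called lower. Ifi44 rose by 3.19 ± 0.47 on the log2(TPM + 1) scale (SE, 2 libraries per stage in a fit of 8, limma adjusted p = 0.00128). It reached 1 TPM in both E18.5 libraries and otherwise in CPF E14.5 alone, so it passed the filter only through E18.5. With no filter on low values it was still called (limma adjusted p = 0.0233). Bst2 rose by 1.96 ± 0.45 (limma adjusted p = 0.0193) and Rsad2 by 1.85 ± 0.39 (0.0125). Ifit3 at 1.76 ± 0.51 (limma adjusted p = 0.0513), Isg15 at 1.5 ± 0.71 (0.231), Oasl2 at 1.29 ± 0.48 (0.116) and Usp18 at 0.72 ± 0.42 (0.315) did not pass. The median of all genes was -0.21. In DMSO kidneys alone, E18.5 was higher than E12.5 for 7 of the 8 measurable genes, with ratios between 1.22 for Usp18 and 15.9 for Ifi44, and Isg15 was lower, at 0.691. In CPF kidneys all 8 were higher, with ratios between 3.42 for Usp18 and 62.6 for Ifi44, leaving aside Isg15 and Ifit1, whose CPF values at E12.5 rest on 1 and 2 reads. The Bst2 and Rsad2 calls were lost when both the E14.5 and the E16.5 pair were left out (adjusted p = 0.0887 and 0.125) and with no filter on low values (0.0991 and 0.0624). Without the E14.5 pair, 5 genes passed, with Ifit3 and Isg15 added (0.00794 and 0.0332).

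**Figure D3:**
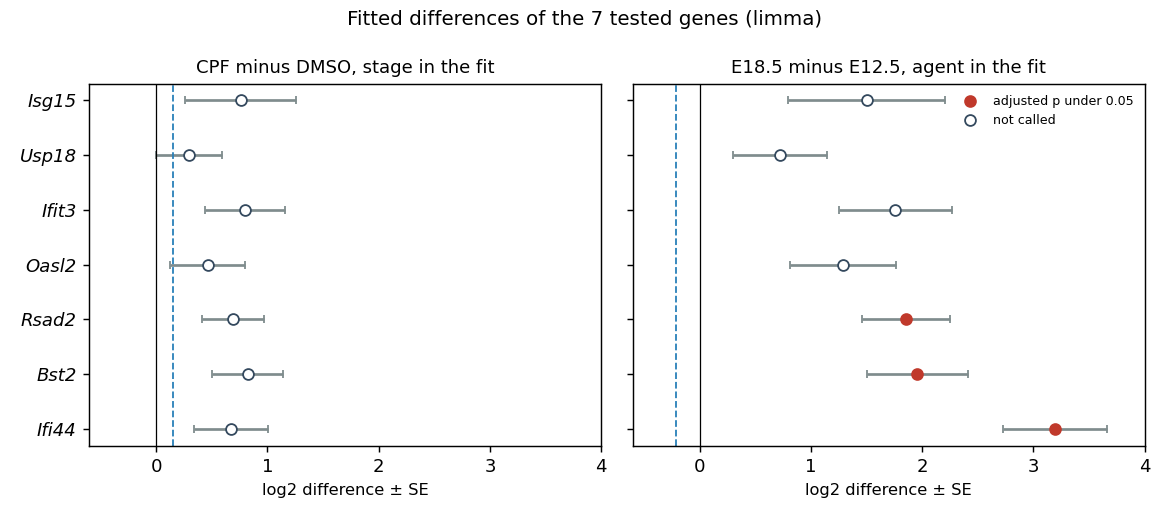
Fitted log2(TPM + 1) difference ± SE (horizontal) of 7 genes for CPF minus DMSO (left, 4 stage pairs) and E18.5 minus E12.5 (right); the dashed line is the median of all genes and filled points passed an adjusted p of 0.05. No gene passed on the left, where all points lie between 0.30 and 0.82; Ifi44, Bst2 and Rsad2 passed on the right.

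Whether the course over development differed between the agents was asked with an agent by embryonic day term. All 7 slope differences, CPF minus DMSO, were above 0 and 0 of 7 passed, where the test called 0% of all genes in either direction (0 of 13677, with 3615 at an unadjusted p under 0.05 by limma). Isg15 had the largest slope difference, 0.50 ± 0.15 log2 units per day (SE, limma adjusted p = 0.132), and was the 1 member at an unadjusted p under 0.05. Ifit3 followed at 0.28 ± 0.23 (0.460), Oasl2 at 0.25 ± 0.12 (0.212), Bst2 at 0.24 ± 0.12 (0.239), Ifi44 at 0.25 ± 0.25 (0.558) and Usp18 at 0.15 ± 0.12 (0.432). The median of all genes was 0.11. Rsad2 was near 0, at 0.069 ± 0.090 (0.660), and its sign turned to -0.036 with quantile normalization, to -0.012 when rescaled to coding transcripts and to -0.058 without the E18.5 pair. In a fit that set the agents' difference at E18.5 against earlier stages, which was chosen after seeing the data, 1 gene of all was called and it was no member.

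The members ran alike over the 8 libraries to different degrees. Over the 21 pairs of the 7 tested genes, Pearson's r of log2(TPM + 1) lay between 0.48 (Ifit3 and Usp18) and 0.96 (Isg15 and Oasl2), and Rsad2 and Bst2 stood at 0.94. These values share the same libraries and the same stage course, and the CPF E18.5 library was highest for all 7. Of 9129 other genes that averaged 5 TPM or more, those with the course most like the mean of the 7 included Slc26a1 (r = 0.991), Slc35f2 (0.982), Glud1 (0.978) and BC004004 (0.977). Slc26a1, a sulfate and oxalate transporter, read 2.25, 8.37, 12.4 and 63.4 TPM in CPF kidneys and 3.57, 3.91, 7.25 and 8.45 TPM in DMSO kidneys. Glud1, the mitochondrial glutamate dehydrogenase, read 153, 239, 329 and 855 TPM in CPF kidneys and 155, 156, 242 and 245 TPM in DMSO kidneys. Like the members, both had their highest value in the CPF E18.5 library.

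Of a list of 40 other interferon-stimulated genes, 39 were in the tables and 29 were tested. Across stages 0 of 29 were called, and 28 lay above 0, with a median of 0.54 against 0.15 for all genes. Oas1a, Oasl1 and Cxcl10 reached 1 TPM in CPF libraries alone, and Ifit3b at E18.5 alone. These genes passed the filter only through the side where they were high, so the counts of this list are a description. Ifitm2 and Ifitm3, membrane proteins that block viral entry and the most abundant of the list, differed by 0.10 ± 0.23 and 0.64 ± 0.27 (SE, limma adjusted p = 0.943 and 0.471). At E18.5 against E12.5, 10 of the 29 rose and none fell, beside 4.67% and 3.73% of all genes. Their median was 1.06, against -0.21 for all genes. Samd9l, a restriction factor of poxviruses, rose by 3.10 ± 0.40 (limma adjusted p = 0.000609), Ifi35 by 2.18 ± 0.39 (0.00473), the ADP-ribosyltransferase Parp12 by 1.96 ± 0.39 (0.00842) and Ifitm3 by 1.80 ± 0.38 (0.0128). The Parp12 and Ifitm3 calls were lost without both the E14.5 and the E16.5 pair (0.0859 and 0.0858), and that of Ifitm3 also with no filter on low values (0.0838). At E18.5, 19 of the 29 were at least 1 higher in CPF, beside 20.4% of all tested genes. All 29 lay above 0 there, with a median of 1.17 against 0.53. At E12.5, E14.5 and E16.5 the numbers at least 1 higher were 2, 3 and 4, beside 6.04%, 6.18% and 7.44% of all tested genes.

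Samd9l read 5.38, 15.6, 21.6 and 65.0 TPM in CPF kidneys and 3.20, 14.7, 24.4 and 28.7 TPM in DMSO kidneys. The agents' values were close at E14.5 and E16.5 and apart at E18.5. Of genes next to members, Ifit2, in the cluster of Ifit3 and Ifit1, read 22.9 TPM in the CPF and 16.2 TPM in the DMSO library of E18.5. Cmpk2, which begins 12664 bases beyond Rsad2, read 15.4 TPM in the CPF and 7.37 TPM in the DMSO library of that stage. Ifit3b, the close copy of Ifit3, read 5.09 TPM in the CPF and 1.09 TPM in the DMSO library.

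The machinery that conjugates Isg15 is made of Uba7, Ube2l6, and the ligases Trim25 and Herc6. Of these 4 genes 0 were called in any of the fits. Ube2l6, the conjugating enzyme, read 31.7, 127, 43.0 and 31.8 TPM in CPF kidneys and 12.51, 22.8, 30.8 and 41.0 TPM in DMSO kidneys. It was lower in the CPF than in the DMSO library at E18.5, where Isg15 was 11.3 times as high. Trim25 read 37.8 TPM in the CPF and 11.4 TPM in the DMSO library of E18.5.

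Of the interferon gamma inducible GTPases, which attack the vacuoles of intracellular microbes, 6 of 13 were tested. Irgm2 was higher in CPF across stages by 1.77 ± 0.30 (SE, n = 4 stage pairs, limma adjusted p = 0.0405). It read 3.21, 8.13, 8.18 and 4.64 TPM in CPF kidneys and 0.389, 1.09, 1.03 and 1.52 TPM in DMSO kidneys, so all 4 CPF values lay above all 4 DMSO values. The call held under 5 of 15 alternatives (adjusted p between 0.0103 and 0.954) and was lost without the E16.5 pair (0.102) and without both the E14.5 and the E16.5 pair (0.892). Irgm1 was higher at E18.5 than at E12.5 by 2.25 ± 0.40 (0.00438).

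Of 12 antigen presentation genes 9 were tested and 0 were called across stages or at E18.5 against E12.5. At E18.5, 9 of 9 were higher in CPF and 7 by at least 1, beside 20.4% of all tested genes. Their median difference at that stage was 1.09, against 0.53 for all genes. B2m, the light chain of class I molecules, read 179, 314, 298 and 340 TPM in CPF kidneys and 113, 271, 146 and 160 TPM in DMSO kidneys. H2-K1, a class I heavy chain with close relatives that can share reads, read 14.52, 25.8, 35.8 and 39.3 TPM in CPF kidneys and 13.4, 13.8, 18.7 and 14.52 TPM in DMSO kidneys.

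**Figure D4:**
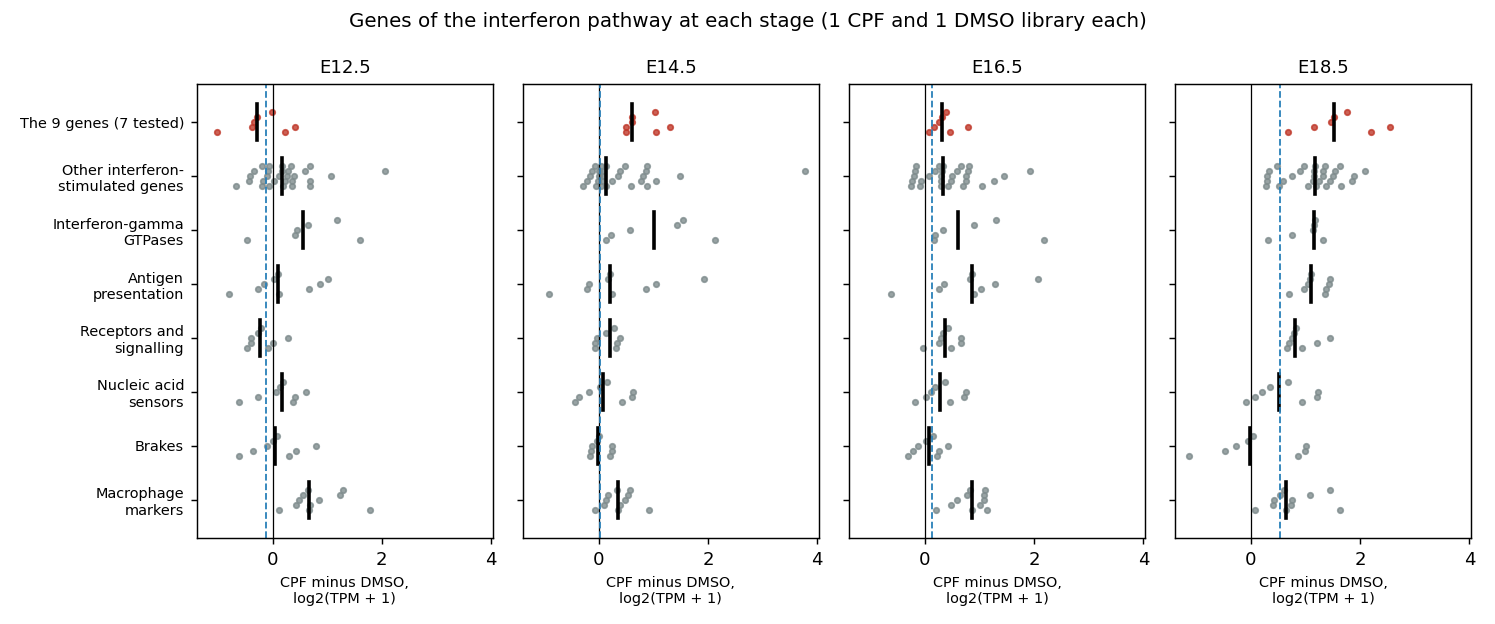
CPF minus DMSO difference on log2(TPM + 1) (horizontal) of tested genes in 8 lists (rows) at each stage; points are genes, bars list medians and the dashed line the median of all genes. At E18.5 the members' median is 1.52 and that of other interferon-stimulated genes 1.17, against 0.53 for all genes.

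Of the 11 ligands, Ifnk alone passed the filter. Ifnb1, Ifna1, Ifna4 and Ifnz were listed at 0 in all 8 libraries. Together the ligands summed to 1.82 to 4.65 TPM in CPF libraries and 2.09 to 5.42 TPM in DMSO libraries, and Ifnk made up the most of it in every library but CPF E12.5, where it was at 0.616 TPM. Ifnk read 0.616, 3.33, 4.65 and 3.70 TPM in CPF kidneys in stage order and 1.97, 4.93, 3.70 and 1.56 TPM in DMSO kidneys. It was thus lower in CPF at E12.5 and E14.5 and higher at E16.5 and E18.5. Of the receptor and signalling genes 8 of 12 were tested and 0 were called across stages. Jak1 read 96.2, 120, 132 and 162 TPM in CPF kidneys and 102, 95.2, 110 and 84.7 TPM in DMSO kidneys, and Ifnar1 read 50.6, 50.5, 63.7 and 69.0 TPM in CPF kidneys and 70.6, 46.0, 50.5 and 39.7 TPM in DMSO kidneys. Il10rb, a receptor chain shared by lambda interferons and interleukin 10, was higher at E18.5 than at E12.5 by 1.88 ± 0.40 (limma adjusted p = 0.0127), a call lost without both the E14.5 and the E16.5 pair (0.115) and with no filter on low values (0.0679). Irf9, Tyk2 and Jak2 have several transcripts and were listed at 0.634 TPM or less.

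Among nucleic acid sensors and their adaptors 8 of 13 were tested and 0 were called. At E18.5, 7 of the 8 were higher in CPF, 2 of them by at least 1, beside 20.4% of all tested genes. Their median difference at that stage was 0.51, against 0.53 for all genes. Ddx58, which senses viral RNA as RIG-I, read 21.7 TPM in the CPF and 8.68 TPM in the DMSO library of E18.5, and the kinase Tbk1 read 48.1 TPM in the CPF and 29.5 TPM in the DMSO library. Among 12 genes that restrain the response 8 were tested and 0 were called, and their median difference at E18.5 was -0.011, below that of all genes. Of these 8, 4 were higher in CPF at E18.5, 1 of them by at least 1, and 1 gene was lower by at least 1. Of all tested genes, 20.4% were that much higher and 2.02% that much lower. The lower one, Rnaseh2c, a subunit of the RNase that clears RNA and DNA hybrids, read 57.3 TPM in CPF and 127 TPM in DMSO. The higher one, Irf2bp2, read 92.9 TPM in the CPF and 45.4 TPM in the DMSO library.

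Cell type markers moved with some of these results, and in whole tissue more cells of a type cannot be told apart from more RNA per cell. All 11 tested macrophage markers were above 0 in CPF minus DMSO across stages, with 0 called and a median of 0.64 against 0.15 for all genes. At E18.5 their median difference was 0.64, against 0.53 for all genes. At that stage 3 of the 11 were at least 1 higher in CPF, beside 20.4% of all tested genes. Their list summed to 149, 199, 282 and 197 TPM in CPF kidneys in stage order and to 76.8, 144, 152 and 123 TPM in DMSO kidneys. Under each agent the sum was highest at E16.5. Lyz2 was higher at E18.5 than at E12.5 by 2.00 ± 0.37 (limma adjusted p = 0.0055), a call lost without both the E14.5 and the E16.5 pair (0.0692). Csf1r, which defines the lineage, read 22.7 TPM in the CPF and 7.68 TPM in the DMSO library of E18.5, and Tyrobp read 22.7 TPM in the CPF and 21.6 TPM in the DMSO library. The part of macrophage RNA in the members' levels was not tested.

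S100a8, a neutrophil gene, was higher in CPF across stages by 1.97 ± 0.32 (SE, n = 4 stage pairs, limma adjusted p = 0.0328), and the call held under 5 of 15 alternatives (adjusted p between 0.000265 and 0.954), and was lost without both the E14.5 and the E16.5 pair (0.603). The 6 neutrophil genes summed to 54.1 TPM in the CPF and 25.7 TPM in the DMSO library of E18.5. Of 9 genes listed for plasmacytoid dendritic cells and lymphocytes, 8 did not pass the filter. Siglech, which defines plasmacytoid cells in the mouse, was at 0.237 TPM or less in every library, and the T cell gene Cd3e at 0.707 TPM or less. The 1 that passed, Klk1, is also a kidney tubule gene and was called higher at E18.5 than at E12.5. In the CPF library of E18.5, endothelial genes summed to 475 TPM, liver genes to 1135 TPM, adrenal cortex genes to 173 TPM and erythroid genes to 33.9 TPM. In the DMSO library of E18.5 these sums were 169, 45.7, 72.9 and 70.6 TPM. Their part in the members' E18.5 values was not tested.

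Some of the kidney's own genes moved with stage as well. Of 12 tested, 3 were called lower at E18.5 than at E12.5 and 0 higher, beside 3.73% and 4.67% of all genes. Six2 and Osr1 of the nephron progenitors and Foxd1 of the stroma were lower at E18.5 than at E12.5, with differences of -1.76, -2.01 and -2.52 on the log2(TPM + 1) scale (limma adjusted p = 0.00931, 0.00645 and 0.000506). The Six2 and Osr1 calls were lost without both the E14.5 and the E16.5 pair (0.118 and 0.0721) and with no filter on low values (0.0586 and 0.0504), and that of Six2 also with quantile normalization (0.0643). In the CPF library of E18.5, Six2, Osr1 and Foxd1 read 8.38, 4.99 and 9.04 TPM, against 35.1, 12.4 and 22.1 TPM in the DMSO library of E18.5. Other kidney genes went the other way there. Of the 12, 6 were higher in CPF at E18.5, 4 of them by at least 1, and 4 were lower by at least 1. Of all tested genes, 20.4% were that much higher and 2.02% that much lower. The 12 genes summed to 468 TPM in the CPF and 323 TPM in the DMSO library of E18.5. Whether the maturity of the kidney bears on the members' values was not tested.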

How the data were processed

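RNA sequencing of embryonic kidney was deposited as 1 table per library. Per the submitters' processing notes, Trimmomatic, STAR and mm10 were used; the sources used here give no versions and do not say how reads were assigned to transcripts. The authors deposited TPM per RefSeq transcript. Transcripts were summed per symbol, and 52 transcripts whose symbols were listed as dates or numbers were renamed from their RefSeq identifiers. Reads behind a value were recovered from steps of the low TPM values and transcript lengths; 68.7% to 72.3% of low values were whole within 0.05 reads, and 4 of the 5 member values of 1 to 8 reads, with a largest departure of 0.165. No count test was run.

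limma 3.58.1 (R 4.3.3), with a mean-variance trend and robust moderation, was fitted to log2(TPM + 1) of 13677 genes with at least 1 TPM in at least 2 libraries, with calls at a Benjamini-Hochberg adjusted p under 0.05. On this scale the change of a low gene is understated. The terms were stage and agent (3 residual degrees of freedom), or agent, embryonic day and their product (4). The p-values measure how the libraries depart from these terms, not the spread between animals. The labels name no batch. The procedure was also run on simulated libraries with known changes and independent noise. Such a run cannot show how it fares with tissue carried over or with differences between animals. Python 3.11.15, pandas 2.3.3 and scipy 1.17.1 were used for the rest.

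The members and gene lists were chosen with earlier results of these data known. By rule, the text names every member, up to 4 called genes of each list by p and otherwise the 2 tested genes with the highest mean. It names further list genes for their position, their role as a defining marker or because a sentence lists a whole set. Not every gene that the rules name is reported here. Genes most like the members were ranked by Pearson's r with the mean z-score of the members with a mean of at least 1 TPM. Alternatives changed the pseudocount, filter, scaling, moderation, stage pairs used and model terms.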

Additional observations from a re-analysis of the deposited data

Results flagged for a closer look

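Isg15 had CPF minus DMSO differences of opposite sign at the ends of the series, 2.54 at E18.5 and -1.01 at E12.5 on the log2(TPM + 1) scale. Each is 1 library against 1, and the difference between the stages was not tested beyond the agent by embryonic day term, which it did not pass (limma adjusted p = 0.132). The E12.5 difference rests on 1 read in the CPF library and 12 in the DMSO library, and the E18.5 difference on 72 reads in the CPF library and 11 in the DMSO library.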

How the results depend on the processing

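No member was called for CPF against DMSO under any alternative. The number of all genes called there, 22, moved to 83 and 2 with pseudocounts of 0.1 and 5, to 0 with no filter, to 98 with a filter of 5 TPM, to 0 with quantile normalization, to 1 when rescaled to coding transcripts, to 4 with plain moderation, to 34 without both the E14.5 and the E16.5 pair, and to 0 with no stage term or a linear day. Leaving out 1 stage pair gave 25 to 221, the highest without E14.5. Between E18.5 and E12.5 the 1149 calls became 687 with a pseudocount of 5 and 394 with no filter, and 1077 to 1413 when a pair was left out. The members called, 3, became 1 with no filter, 1 without both pairs and 4 to 5 when a pair was left out, while rescaling to coding transcripts added Ifit3 (limma adjusted p = 0.0388). For the slopes, 0 calls became 1 in the fit of E18.5 against earlier stages, and Rsad2 reversed at -0.036 with quantile normalization and -0.012 when rescaled, and lay between -0.058 and 0.110 when a pair was left out. At E18.5, 7 of 8 members were at least 1 higher in CPF. This became 4 with a pseudocount of 5, 3 with quantile normalization and 3 relative to the median of all genes. These alternatives were chosen after seeing the data, and the share of all genes was not computed for them. Beyond these, 101 values of single members for CPF against DMSO, 65 for E18.5 against E12.5 and 84 slopes kept their direction and their side of the threshold under the alternatives run. Slopes without both pairs, and E18.5 against E12.5 without either stage, could not be fitted. The main fit pairs the CPF and DMSO libraries by stage; the labels give no other pairing. The causes of these moves were not tested. At these depths values under about 0.1 TPM rest on 1 or 2 reads, and with 1 library per agent and stage no difference within a stage can be set against the spread between animals.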
